A study of Mus musculus with 830 samples.

Results

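Mouse endoderm cells that carried GFP at both Neurog3 alleles (HM, genotype Ngn3-GFP/GFP) were divided by whether their own Neurog3 transcript was detected. A cell counted as Neurog3-positive when it had at least 10 CPM of Neurog3 (the usual unit of read counts scaled to the total reads of a cell), and as Neurog3-negative below that level. Of 134 HM cells deposited at 21 and 24 somites, 109 held at least 100000 reads and entered the division, and 25 were too shallow. The rule gave 41 Neurog3-positive cells (9 at 21 somites and 32 at 24 somites) and 68 Neurog3-negative cells (27 at 21 somites and 41 at 24 somites), out of 830 cells in the whole series. The groups were thus chosen on a measured value, Neurog3 itself, which is described below without a test and was left out of every test.

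Every cell carried the strain label C57BL/6XC3H and a stage given by the somite number. Heterozygous cells (HZ, genotype Ngn3-GFP/+), which keep 1 allele free of GFP, were divided by the same rule and served as the comparison. Endoderm was dissociated with trypsin, stained for the epithelial surface protein EpCAM and sorted with dead cells excluded by DAPI. Each cell was then sequenced alone with Smart-seq3xpress, a plate-based single-cell RNA-seq method. The labels do not say whether cells were also sorted on GFP, how many embryos were used or which part of Neurog3 the GFP replaces. The residual Neurog3 reads of HM cells are therefore no check of their genotype.

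Neurog3 is a basic helix-loop-helix transcription factor that starts the endocrine programme in pancreas and gut. In mice without it, endocrine cells of the pancreas do not form. It is switched on briefly in scattered epithelial progenitors, and Notch signalling through the repressor Hes1 holds it down in their neighbours. Its known targets include the transcription factors Neurod1, Pax4, Insm1 and Nkx2-2 and the cell cycle inhibitor Cdkn1a.

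The transcript that divided the cells starts on the plus strand of chromosome 10, and the gene spans chr10:62133090-62134763 in GENCODE vM21 (GRCm38). Its promoter from RefSeq (GRCm38.p6, chr10:62132840-62133139, plus strand, 5′ to 3′), which holds 250 bases before the start and 50 after it, is shown because the cells were divided by the transcript that starts there. The capitals mark the single E-box in the window, the CANNTG motif that basic helix-loop-helix proteins bind.
Neurog3 promoter: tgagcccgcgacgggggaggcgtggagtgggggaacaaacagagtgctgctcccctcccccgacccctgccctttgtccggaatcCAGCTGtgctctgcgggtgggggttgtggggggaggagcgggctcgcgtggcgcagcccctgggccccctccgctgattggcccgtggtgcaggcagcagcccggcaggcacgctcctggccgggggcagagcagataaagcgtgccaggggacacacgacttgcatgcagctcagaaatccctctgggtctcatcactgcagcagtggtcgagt
CANNTG reads the same on both strands, and 72.3% of the 32851 mouse promoters of this length hold at least 1. The N-box CACNAG, searched on both strands, had 0 matches in the window, and 42.5% of promoters hold it.

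Neurog3 was low in the HM cells called positive. At 21 somites the lowest, median and highest positive cells had 11.0, 17.9 and 57.9 CPM, and the negative cells 0, 0.460 and 9.40 CPM. At 24 somites the positive cells had 10.6, 18.8 and 42.0 CPM, and the negative cells 0, 3.29 and 9.92 CPM. The same rule in HZ cells gave 10.1, 184 and 1198 CPM at 21 somites and 10.1, 74.8 and 833 CPM at 24 somites for positive cells. Only 1 of 9 and 0 of 32 positive HM cells reached 50 CPM, against 56 of 73 and 20 of 37 positive HZ cells. The positive HM cells thus overlapped only the lower end of the HZ range.

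The division ran through a continuum of low levels. The 3 positive cells nearest the threshold had 11.0, 11.1 and 17.6 CPM at 21 somites, and the 3 negative cells nearest it 8.19, 8.21 and 9.40 CPM. At 24 somites the positive cells nearest it had 10.6, 11.0 and 11.0 CPM, and the negative ones 9.60, 9.78 and 9.92 CPM. The share of positive cells was 43.8% at 24 somites (32 of 73 cells, exact binomial 95% interval 32.2% to 56.0%) and 25.0% at 21 somites (9 of 36 cells, 12.1% to 42.2%). These intervals overlap, and they cover counting error only. At least 1 Neurog3 read was present in 23 of 36 cells at 21 somites and in 58 of 73 cells at 24 somites, so many negative cells were not free of the transcript. With every cell thinned to 100000 reads, where 1 read makes 10 CPM, 12 cells (33.3%) at 21 somites and 37 cells (50.7%) at 24 somites passed the threshold. The fold changes and calls given below for thinned cells use this new division, so depth and group membership both changed there.

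**Figure D1:**
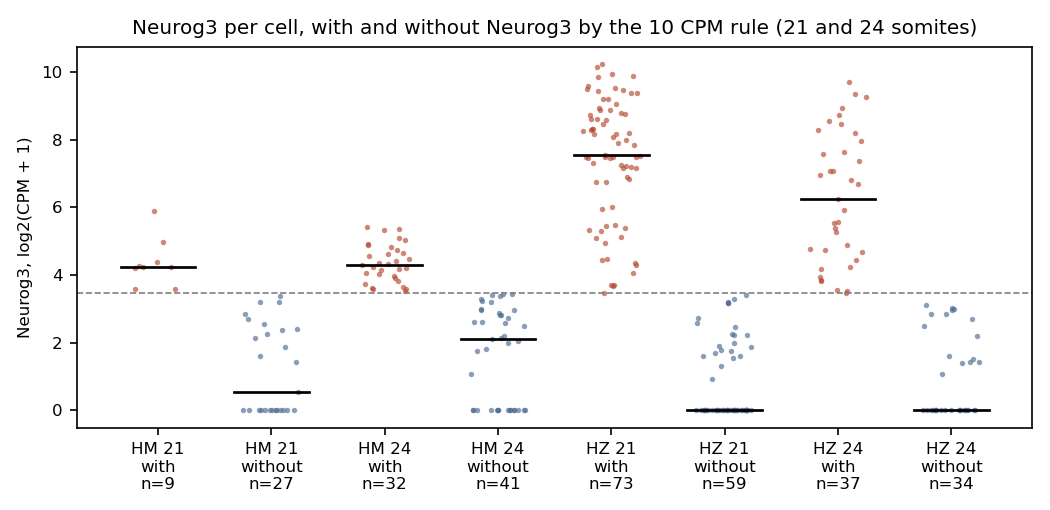
Neurog3 per cell on a log2(CPM + 1) scale, in HM and HZ cells with and without Neurog3 at 21 and 24 somites. Each point is 1 cell, the black lines are medians and the dashed line is the 10 CPM threshold. Positive HM cells sit just above the threshold, up to 57.9 CPM, while positive HZ cells reach 1198 CPM.

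Depth was close between the HM groups: the median cell had 909109 reads when positive and 1000012 reads when negative at 21 somites, and 657808 reads when positive and 700937 reads when negative at 24 somites. At an equal 100000 reads, the median positive cell showed 7725 genes and the median negative cell 7206 genes at 21 somites. At 24 somites these medians were 7772.5 and 7150 genes. The epithelial gene Epcam averaged 717 and 612 CPM in the positive pools of 21 and 24 somites, against 462 and 512 CPM in the negative pools. Of the 12 blood markers, 2 passed the filter on low counts, and the list summed to at most 4.19 CPM in any HM pool. Neural crest and neuron markers were present, with a sum of 11.7 and 282 CPM in the positive pools and 8.66 and 1887 CPM in the negative pools.

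Because the labels name no embryo, single cells were not used as replicates. Summing the counts by stage and status gave 4 HM pools, and each level below that is not said to be of single cells is the CPM of such a pool. In a pool, fewer cells expressing a gene and less RNA in each cell cannot be told apart. The 2 stages were the only replication, and 1 residual degree of freedom remained. The edgeR p-values in HM cells thus rest largely on a spread shared across genes, which counted for a median of 6.12 degrees of freedom. A small p does not show that a gene differed alike at both stages.

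No gene was called different between positive and negative HM cells by edgeR's quasi-likelihood test at an adjusted p under 0.05 (0 of 14642 genes, 0%). At an unadjusted p under 0.05, 149 genes were higher and 184 lower in positive cells, together 2.27% of those tested. DESeq2 on the same pools called 89 genes higher and 75 lower (1.12%), and limma on mean log2 CPM or TPM per cell called 0. In simulated counts of this design, edgeR recovered 1 of 50 genes changed 2-fold and 11 of 49 changed 4-fold. The lack of edgeR calls therefore does not show that the groups were alike. In the same simulated counts 546 of 689 DESeq2 calls were false, so the DESeq2 calls here and below are weak evidence.

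In HZ cells the same division called 67 of 16031 genes (0.418%) by edgeR, 15 higher and 52 lower in positive cells. The 67 genes included the cell cycle inhibitor Cdkn1a and the antiproliferative gene Btg2, both higher in positive cells. Unlike the HM test, this fit held the HM and HZ pools together, with 2 residual degrees of freedom. In that joint fit the HM contrast called 0 of 16031 genes. Positive HZ cells held far more Neurog3 than positive HM cells, and with HZ positive cells limited to 10 to 50 CPM, edgeR called 0 genes higher and 2 lower of 15558. This limit also made the pools smaller, with 17 and 17 positive HZ cells at 21 and 24 somites, against 73 and 37 without it. The log2 fold changes were then 1.52 for Cdkn1a and 1.73 for Btg2 (adjusted p = 0.080 and 0.081 by edgeR).

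Across genes, the HM differences at the 2 stages did not run together. Of 7836 genes at 10 CPM or more in all 4 pools, 49.6% had the same sign at both stages, and the log2 ratios of the stages had a Pearson r of -0.11 across genes. Of the 14642 genes tested, 3782 (25.8%) were higher in positive cells at both stages by any amount. In HZ cells 66.0% of 7900 such genes kept their sign, with an r of 0.55 across genes. Genes are not independent replicates, so these values describe the pools and carry no p.

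**Figure D2:**
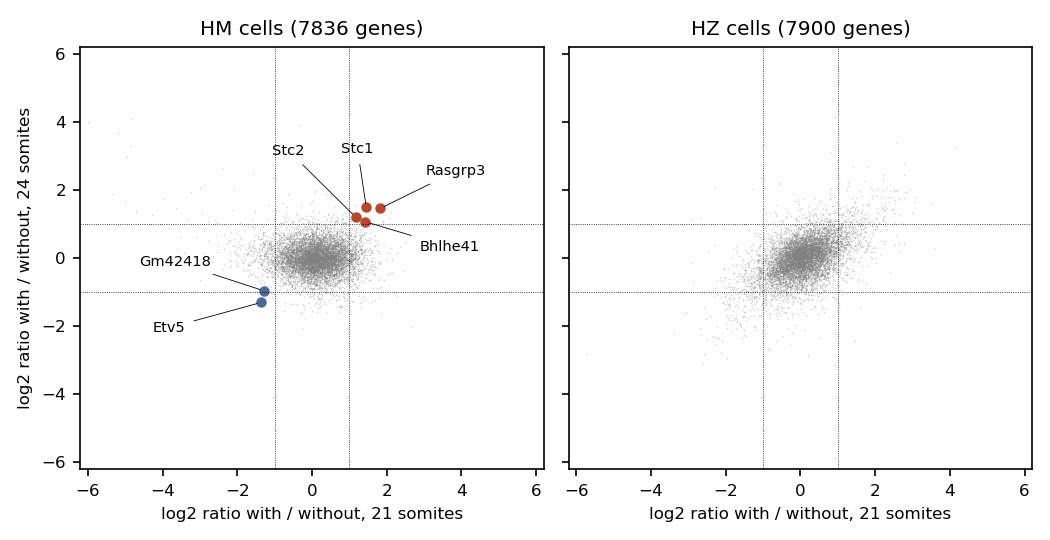
Log2 ratio of positive over negative pools (1 CPM added) at 21 somites on the x axis and at 24 somites on the y axis, for HM cells on the left and HZ cells on the right. Each point is 1 gene at 10 CPM or more in all 4 pools, and dotted lines mark 2-fold. The HM cloud has no diagonal trend (r of -0.11), the HZ cloud has one (r of 0.55), and the labelled genes are among those described in the text.

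No target of Neurog3 passed the test in the HM cells that carried its transcript. Of the 15 genes on the target list, 14 were tested, none passed by edgeR or DESeq2, 7 had positive and 7 negative log2 fold changes, and their median was 0.02, beside -0.04 over all genes tested. In HZ cells the median of the list was 2.22 and edgeR called 3 of its genes higher, against 0.0936% of all genes. With HZ positive cells limited to 10 to 50 CPM, the median was 1.52, beside -0.11 over all genes, and 0 were called. The list came with earlier results of these cells in view, so its direction is no independent evidence.

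Neurod1, a bHLH factor that acts directly downstream of Neurog3, had no read in the 9 positive cells of 21 somites, where 3 reads would be 0.359 CPM, against 0.95 CPM in the negative pool. At 24 somites it stood at 115 CPM in the positive pool and 268 CPM in the negative pool. In single cells of 24 somites it was at 10 CPM or more in 5 of 32 positive and 13 of 41 negative cells, and the highest cell of each group was close (1965 and 1913 CPM). In HZ pools it was 317 and 371 CPM in positive cells, against 174 and 198 CPM in negative cells.

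Pax4, a repressor needed for beta and delta cells, was nearly silent in HM cells, at 0.239 and 0.270 CPM in positive pools and 0.0679 and 0.338 CPM in negative pools. The HZ pools had 120 and 74.9 CPM in positive cells and 13.4 and 20.9 CPM in negative cells. Its HM counts were too low for the test.

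Insm1, a zinc finger factor of endocrine precursors, was 8.01 and 31.8 CPM in positive HM pools and 1.73 and 25.2 CPM in negative ones (log2 fold change 1.17, SE 0.65, not called by edgeR). It reached 10 CPM in 2 of 9 and 10 of 32 positive cells, against 2 of 27 and 9 of 41 negative cells, so both groups held some Insm1 cells and mostly cells without it. In HZ positive pools it was 288 and 145 CPM, against 53.8 and 36.1 CPM in negative pools.

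Cdkn1a, which encodes the cell cycle inhibitor p21, was 157 and 181 CPM in positive HM pools and 117 and 158 CPM in negative HM pools (log2 fold change 0.24, SE 0.28). In HZ cells it was 1158 and 1013 CPM in positive pools and 286 and 284 CPM in negative pools (log2 fold change 1.93, SE 0.19, edgeR adjusted p = 0.023). The difference between these contrasts was -1.69 (SE 0.26), with an edgeR adjusted p of 0.115. Btg2 had a log2 fold change of -0.07 in HM cells and 2.29 in HZ cells, and its difference also missed the threshold (adjusted p = 0.115 by edgeR).

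Dll1, a Notch ligand that signals to neighbouring cells, was 27.1 and 16.2 CPM in positive HM pools and 7.43 and 11.6 CPM in negative HM pools. Pak3, a kinase tied to cell cycle exit of endocrine cells, was 23.9 and 12.0 CPM in positive pools and 2.41 and 5.91 CPM in negative pools. Mfng, a glycosyltransferase that modifies Notch, went the other way, at 0.478 and 32.8 CPM in positive pools and 2.65 and 66.6 CPM in negative pools. None of these was called by edgeR.

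**Figure D3:**
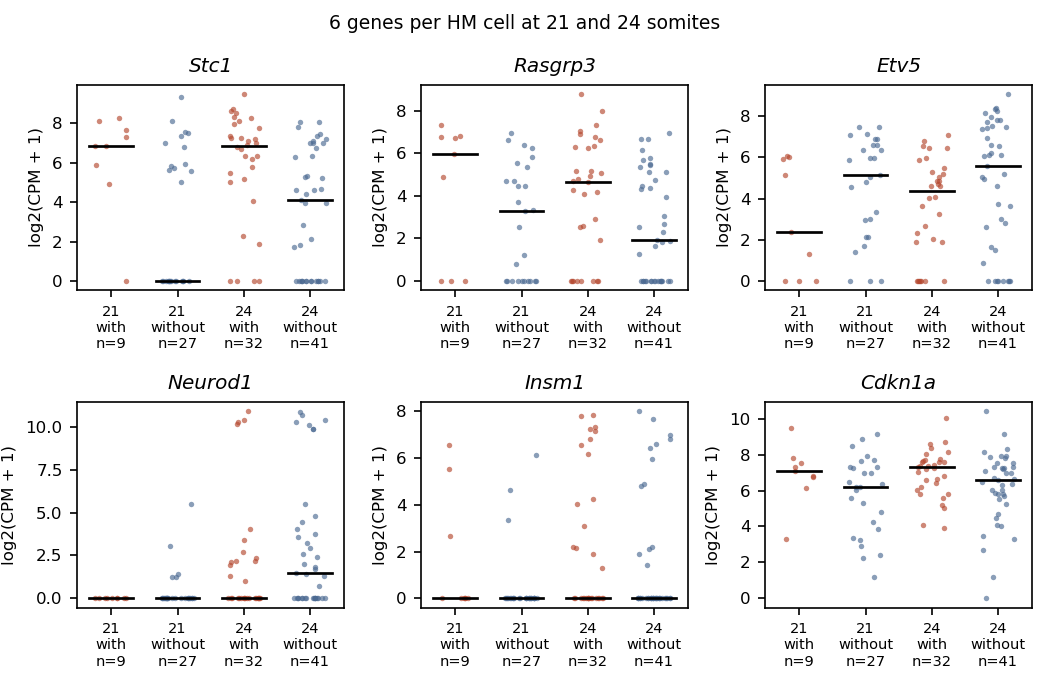
Levels of 6 genes in single HM cells on a log2(CPM + 1) scale, with positive cells left of negative cells at 21 and at 24 somites. Each point is 1 cell and black lines are medians. The medians of Stc1 and Rasgrp3 are higher and those of Etv5 lower in positive cells at both stages. Neurod1 has a median of 0 in both positive groups and in the negative cells of 21 somites.

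Of the 26 endocrine factors listed, 22 were tested and none passed by edgeR or DESeq2, with a median log2 fold change of 0.21 (0.89 in HZ cells). Of 13 hormone genes 8 were tested and none was called by edgeR, while DESeq2 called Sct, which encodes secretin, lower. Sct was 4.66 and 6.34 CPM in positive pools and 17.2 and 49.5 CPM in negative pools. Ghrl, which encodes ghrelin, was 33.5 and 411 CPM in positive pools and 43.0 and 26.2 CPM in negative pools, and 1 cell held 68.1% of its reads in the positive pool of 24 somites. Gcg, which encodes glucagon, stayed at 1.91 and 5.49 CPM in positive pools and 1.09 and 7.94 CPM in negative pools. Of the 23 granule genes 18 were tested, and 9 had positive and 9 negative fold changes. Cells with Neurod1, Chga, Gcg or Fev at 50 CPM or more made up 0 of 9 and 5 of 32 positive cells, and 1 of 27 and 10 of 41 negative cells. The count of 0 allows a share of up to 33.3%.

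Genes of the progenitor epithelium were present in both groups. Pdx1, which marks the pancreatic and duodenal field, reached 10 CPM in 4 of 9 and 10 of 32 positive cells, against 6 of 27 and 14 of 41 negative cells. Sox9, a progenitor factor, was 294 and 228 CPM in positive pools and 123 and 226 CPM in negative pools. Foxa2, a pioneer factor of endoderm that binds Neurog3 regulatory DNA, was 88.7 and 85.7 CPM in positive pools and 33.8 and 43.0 CPM in negative pools (log2 fold change 1.12, SE 0.32, not called by edgeR). DESeq2 called Foxa2 higher in positive cells. Its log2 fold change turned to -0.15 when cells with at least 1 Neurog3 read were set against cells with none. Of the 20 listed progenitor genes 18 were tested, 13 with positive fold changes, against 6788 of all 14642 genes tested. Their median was 0.39, and it turned to -0.01 with at least 1 Neurog3 read against none.

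The Notch list had 20 of 22 genes tested, 14 of them with positive fold changes and none called by edgeR or DESeq2. Over all genes tested, 6788 of 14642 had positive fold changes. The median of the Notch list was 0.36, and -0.001 in Pdx1 cells only. Hes1, the Notch effector that represses Neurog3, was 163 and 142 CPM in positive HM pools and 91.7 and 120 CPM in negative HM pools (log2 fold change 0.46, SE 0.30). This log2 fold change turned to -0.32 with at least 1 Neurog3 read against none, -0.08 in thinned cells and -0.68 in Pdx1 cells only. In HZ cells it was 30.2 and 24.3 CPM in positive pools and 78.5 and 80.5 CPM in negative pools (log2 fold change -1.55, edgeR adjusted p = 0.064). The difference between the contrasts was 2.00, with an edgeR adjusted p of 0.175. The receptor Notch3 was 113 and 102 CPM in positive HM pools and 44.7 and 73.0 CPM in negative HM pools.

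Liver genes went opposite ways at the stages. They had a median log2 ratio of -5.01 at 21 somites and 1.82 at 24 somites. Afp, the fetal liver plasma protein, was 138 and 2098 CPM in positive pools and 4046 and 213 CPM in negative pools, and 1 cell held 91.0% of its reads in the positive pool of 24 somites. Cells with Afp or Apoa1 at 1000 CPM or more numbered 0 of 9 and 1 of 32 among positive cells, and 10 of 27 and 1 of 41 among negative cells. Without such cells, an alternative chosen after the data were seen, edgeR called 0 genes higher and 2 lower, and the log2 fold changes of Stc1 and Adm, described below, were 1.03 and 2.50.

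Neural crest and neuron genes had a median of 0 at 21 somites and -2.22 at 24 somites. Tubb3, a neuronal tubulin, was 0.478 and 81.5 CPM in positive pools and 0.509 and 714 CPM in negative pools, where 62.0% of the reads at 24 somites came from 1 cell. Mitotic genes had medians of 0.53 at 21 somites and -1.23 at 24 somites. Plk1, a mitotic kinase, was 58.4 and 33.4 CPM in positive pools and 98.3 and 99.1 CPM in negative pools. Its order at 21 somites was thus opposite to the median of the mitotic genes. No member of any list was called by edgeR in HM cells. DESeq2 called 14 of the 353 list members tested, 8 higher and 6 lower, against 164 of 14642 genes tested (1.12%). The lists were chosen with earlier results of these data known, so this count is no independent evidence.

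The remaining lists are given by their median log2 fold change in HM cells, beside -0.04 over all genes. Region genes of midgut and hindgut had a median of 0.95, foregut genes 0.32, notochord genes 0.16 and hedgehog genes 0.21. Epithelial genes had 0.29, early epithelium genes -0.27, mesenchyme genes 0.53 and endothelium genes -0.84. Factors of the bHLH and Id families had 0.27, DNA synthesis genes -0.19 and genes of cell cycle exit 0.26. Retinoic acid genes had 0.09, Wnt genes -0.26, FGF and BMP genes -0.03, dissociation stress genes -0.11 and ribosomal protein genes -0.05. The midgut and hindgut genes had a median of -0.17 at 21 somites and 1.27 at 24 somites, so this group too differed between the stages.

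**Figure D4:**
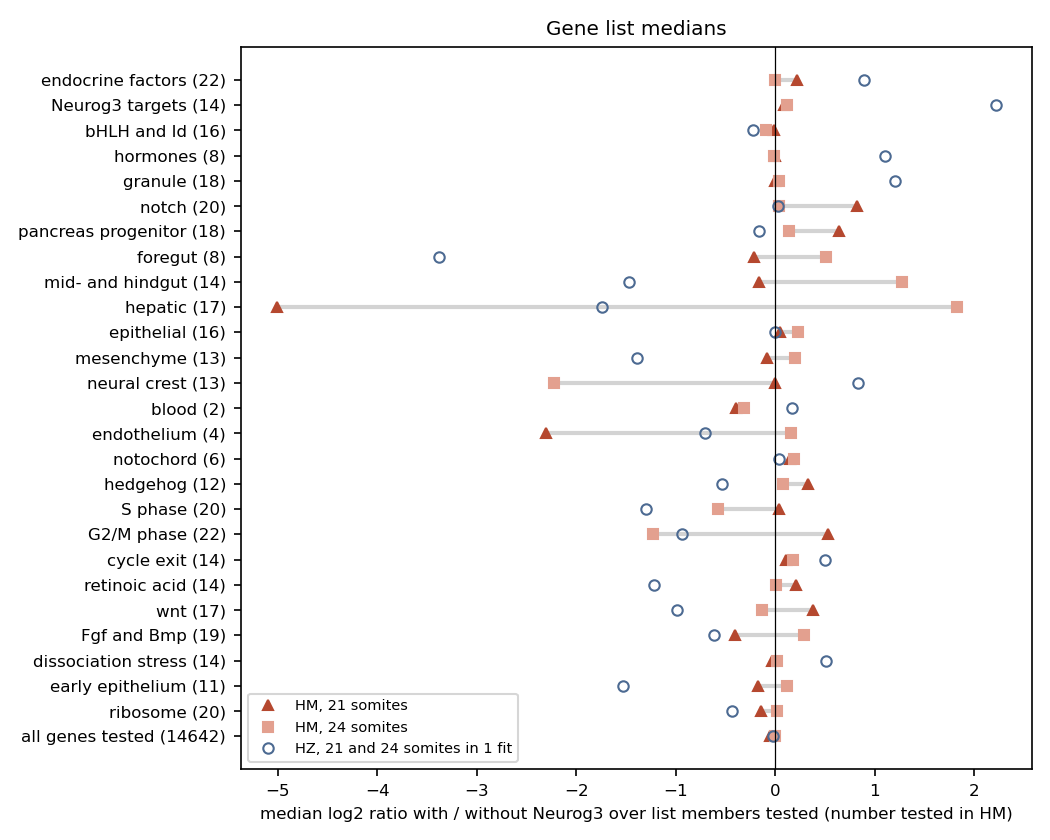
Median log2 ratio of positive over negative cells for 26 gene lists and for all genes tested, with the number of members tested in HM cells in brackets. Triangles are HM pools of 21 somites, squares HM pools of 24 somites and open circles HZ pools of both stages in 1 fit. The Neurog3 targets lie near 0 in HM cells and at 2.22 in HZ cells, and liver genes lie at -5.01 and 1.82 in HM cells.

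Some genes differed by at least 2-fold in the same direction at both stages, a rule of size that carries no test. In HM cells 183 genes were higher (1.25%) and 160 lower (1.09%) in this sense, and in HZ cells 488 (3.04%) and 807 (5.03%). With a mean of at least 20 CPM over the pools of the higher group and at least 25% of its cells at 10 CPM or more at each stage, 35 higher and 9 lower genes remained in HM cells. The 12 higher genes ranked first by the smaller of their 2 ratios were Ascl2, Adm, Scnn1a, Fzd8, Rasgrp3, Stc1, Rnf217, Tmem191c, Mxi1, Gata3, Inafm2 and Efna1. The lower genes were Nup98, Hdhd3, Etv5, E130012A19Rik, Slc11a2, Zfp952, Slc26a2, Ramp2 and Eno1b. All were chosen for their size, and none was called by edgeR.

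Stc1, which encodes the secreted glycoprotein stanniocalcin 1 (chr14:69029238-69041804), was 0, 114 and 305 CPM in the lowest, median and highest positive cells of 21 somites, and 0, 0 and 640 CPM in the negative cells. At 24 somites it was 0, 113 and 711 CPM in positive cells and 0, 16.5 and 265 CPM in negative cells. The groups overlapped at both stages, and their medians lay far apart. The pools had 137 and 152 CPM in positive cells and 49.4 and 53.6 CPM in negative cells (log2 fold change 1.42, SE 0.30). In cells of 18 somites, which the rule did not use, the positive pool (6 cells) had 6.66 CPM and the negative pool (9 cells) 25.6 CPM, the opposite order.

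Rasgrp3, an exchange factor that activates Ras (chr17:75435896-75529054), was 0, 60.5 and 158 CPM in positive cells of 21 somites and 0, 8.79 and 121 CPM in negative cells. At 24 somites it was 0, 24.4 and 440 CPM in positive cells and 0, 2.75 and 122 CPM in negative cells. The pools had 78.9 and 55.4 CPM in positive cells and 21.5 and 19.5 CPM in negative cells (log2 fold change 1.62, SE 0.36). At 18 somites it kept this order, at 52.0 CPM in the positive pool and 9.47 CPM in the negative pool. In HZ cells it was 20.7 and 19.0 CPM in positive pools and 17.6 and 27.5 CPM in negative pools.

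Ascl2, a bHLH factor known from intestinal stem cells (chr7:142966829-142969264), was at 10 CPM or more in 4 of 9 and 14 of 32 positive cells, against 4 of 27 and 5 of 41 negative cells. Its pools had 16.7 and 29.4 CPM in positive cells and 3.02 and 5.27 CPM in negative cells (log2 fold change 2.40, SE 0.59). The same order was seen in HZ cells, at 30.2 and 17.2 CPM in positive pools and 1.45 and 1.96 CPM in negative pools (adjusted p = 0.055 by edgeR). Bhlhe41, a bHLH repressor of the circadian system, was 216 and 206 CPM in positive HM pools and 79.7 and 97.8 CPM in negative HM pools (log2 fold change 1.18, SE 0.28, not called by edgeR). DESeq2 called Bhlhe41 higher in positive HM cells. It passed in HZ cells, at 417 and 226 CPM in positive pools and 72.2 and 54.1 CPM in negative pools (log2 fold change 2.30, edgeR adjusted p = 0.023). With positive HM cells limited to those of at least 20 CPM of Neurog3, its log2 fold change was -0.52. That limit left 2 positive cells at 21 somites, and the median over all genes was then -0.32.

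Efna1, a membrane ligand of Eph receptors, was 94.8 and 98.6 CPM in positive HM pools and 41.2 and 40.8 CPM in negative HM pools. In HZ cells its order was the reverse, with 3.84 and 8.94 CPM in positive pools and 34.9 and 28.1 CPM in negative pools. The Wnt receptor Fzd8 was 25.0 and 25.9 CPM in positive HM pools and 5.09 and 7.90 CPM in negative HM pools. Gata3, a zinc finger factor, was 42.9 and 54.3 CPM in positive HM pools and 16.3 and 23.2 CPM in negative HM pools, against 9.09 and 1.58 CPM in positive HZ pools and 29.4 and 17.0 CPM in negative HZ pools. The differences between the genotypes' contrasts had edgeR adjusted p values of 0.137 for Efna1, 0.313 for Fzd8 and 0.178 for Gata3.

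Etv5, a transcription factor induced by FGF signalling (chr16:22381309-22439719), was 0, 4.26 and 64.9 CPM in positive cells of 21 somites and 0, 33.9 and 178 CPM in negative cells. At 24 somites it was 0, 19.7 and 135 CPM in positive cells and 0, 47.0 and 540 CPM in negative cells. The pools had 26.6 and 32.5 CPM in positive cells and 69.6 and 81.8 CPM in negative cells (log2 fold change -1.43, SE 0.34). At 18 somites it kept this order, at 10.8 CPM in the positive pool and 34.2 CPM in the negative pool. Slc11a2, an iron transporter, was 6.70 and 14.6 CPM in positive pools and 46.2 and 36.0 CPM in negative pools. Adm encodes the peptide adrenomedullin, and Ramp2 a subunit of its receptor. Adm was 29.4 and 18.8 CPM in positive pools and 3.56 and 4.53 CPM in negative pools, and Ramp2 was 19.1 and 15.9 CPM in positive pools and 40.8 and 33.5 CPM in negative pools. Eno1b is a near copy of the glycolytic enzyme gene Eno1, so its reads, 107 and 64.2 CPM in positive pools and 217 and 135 CPM in negative pools, may be split with that gene in an uncertain way.

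Among the other genes of this kind, Scnn1a, a subunit of the epithelial sodium channel, was 38.6 and 33.2 CPM in positive pools and 7.64 and 9.12 CPM in negative pools. Mxi1, an antagonist of Myc, was 84.0 and 101 CPM in positive pools and 36.2 and 41.0 CPM in negative pools. Nup98, a protein of the nuclear pore, was 4.90 and 10.0 CPM in positive pools and 17.9 and 26.5 CPM in negative pools. Each was past 2-fold at both stages, as the rule required.

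The cells of 18 somites gave a look at these genes outside the rule's stages. Of the 12 higher genes, 6 were also higher at 18 somites, and of the 9 lower genes 7 were also lower. Over all 183 higher and 160 lower genes, 36.6% and 42.5% kept their direction, against 42.4% and 45.7% of all genes tested that had these directions at 18 somites. Past 2-fold at 18 somites were 23.5% of the higher and 31.3% of the lower genes, against 19.4% and 23.0% of all genes tested. These pools held 6 positive and 9 negative cells, and the shares carry no test.

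The contrast itself differed between HM and HZ cells in 3 of 16031 genes (0.0187%). Robo2, a receptor for Slit guidance proteins, was 158 and 217 CPM in positive HM pools and 91.9 and 110 CPM in negative HM pools. In HZ cells it was 5.63 and 4.61 CPM in positive pools and 78.3 and 74.7 CPM in negative pools (log2 difference of contrasts 4.71, SE 0.36, edgeR adjusted p = 0.019). The transcript 2610528A11Rik behaved alike, at 149 and 296 CPM in positive HM pools and 107 and 139 CPM in negative HM pools. Its HZ pools had 2.38 and 1.99 CPM in positive cells and 77.9 and 122 CPM in negative cells (difference 6.16, SE 0.47, edgeR adjusted p = 0.019).

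Enc1, an actin-associated protein, showed the opposite. It was 7.89 and 109 CPM in positive HM pools and 10.7 and 152 CPM in negative HM pools, against 894 and 604 CPM in positive HZ pools and 48.9 and 62.6 CPM in negative HZ pools (difference -4.27, SE 0.38, edgeR adjusted p = 0.036). In these genes the HZ contrast was the large one, and the HM contrast was not called by edgeR. The HM direction also rested on the stages used: with the HM pools of 18 somites added, the HM log2 fold changes were -0.62 for Robo2, -0.79 for 2610528A11Rik and 0.93 for Enc1, each opposite in sign to that without them. Positive cells of the genotypes also differed in Neurog3 level. With HZ cells limited to 10 to 50 CPM, closer to the HM range, the differences were 3.37 for Robo2, 5.19 for 2610528A11Rik and -2.66 for Enc1, and none passed (edgeR adjusted p from 0.163 to 0.379).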

How the data were processed

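The authors deposited read counts per gene and cell and, for the same cells, TPM values. The tools named by the submitters' processing notes are HISAT2 2.1.0, Trimmomatic 0.39 and FastQC 0.11.9, with the build GRCm38 (mm10). Neither the counting tool nor its use of strand is given in the sources used here. The counts and the deposited TPM were read for HM and HZ cells only, and 358 cell columns of other groups were not used.

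CPM was computed here as a gene's count over the cell's or pool's total. Counts of cells with at least 100000 reads were summed per genotype, stage and status, without Neurog3. Pools were tested with edgeR 4.0.16 (R 4.3.3; quasi-likelihood test, TMM scaling, default filter on low counts, stage as a factor, Benjamini-Hochberg adjustment over all genes at 0.05). The HZ contrast and the difference between HM and HZ were tested on 8 pools with 2 residual degrees of freedom. DESeq2 1.42.0 and limma 3.58.1 were alternatives. Each SE was obtained as the log2 fold change, in size, divided by the root of F. The tests were checked on simulated counts. For the HM contrast, edgeR recovered 1 of 50 genes changed 2-fold, 11 of 49 changed 4-fold and 36 of 50 changed 8-fold. Most of DESeq2's calls were false, 546 of 689 for this contrast. Doublets were not called, and cells were not clustered.

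Members, the 26 gene lists and the naming rule were chosen with earlier results of these data known. The rule names the genes past 2-fold at both stages (up to 12 in each direction), called genes, up to 3 members of each list by p, fixed landmark genes and the genes with the most different HM and HZ contrasts. The other genes of a list that the text gives, the list of low-oxygen genes and Gm42418 were chosen after their values were seen. The text prints a part of the genes so named, and 1 of them is not reported here.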

Additional observations from a re-analysis of the deposited data

Results flagged for a closer look

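In the 9 positive HM cells of 21 somites, the highest cell stood apart from the others by Dixon's test for 8 of 21 genes examined. Chance alone flags about 1 in 20 such groups, and single-cell counts are not normally distributed. The highest cell was at 160 CPM for Adm, 180 CPM for Scnn1a, 269 CPM for Gata3, 136 CPM for Inafm2 and 365 CPM for Efna1. Among genes lower in positive cells it was at 56.4 CPM for E130012A19Rik, 89.1 CPM for Zfp952 and 334 CPM for Eno1b. The pool values of these genes at 21 somites thus rest in part on single cells.

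The contrast between positive and negative cells differed between HM and HZ by the interaction test for 2610528A11Rik (log2 difference 6.16), Robo2 (4.71) and Enc1 (-4.27). Without any 1 of the 4 pairs of pools the differences stayed between 5.73 and 6.59 for 2610528A11Rik, 4.53 and 4.86 for Robo2 and -4.74 and -3.85 for Enc1. Robo2 missed the threshold without the HZ pools of 24 somites (edgeR adjusted p = 0.070), and all 3 missed it with HZ pools of 18 and 27 somites added (edgeR adjusted p from 0.973 to 1.00).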

How the results depend on the processing

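No gene was called in HM cells by edgeR, by limma on CPM or TPM, with DESeq2's size factors, the 20 CPM filter, thinned cells, no depth minimum, no endocrine cells, Pdx1 cells only, the spread shared with HZ, the 18-somite pools added, or positive cells against cells without a read. DESeq2 called 89 higher and 75 lower. Positive cells of at least 20 CPM gave 1 higher and 43 lower, with only 2 cells at 21 somites. At least 1 read against none gave 3 higher and 11 lower. Library sizes only, no filter, the 300000-read minimum and positive cells of at least 5 Neurog3 reads each gave 1 lower, and leaving out cells high in Afp or Apoa1 gave 2 lower. The last 2 of these settings were chosen after the data were seen.

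The counts past 2-fold at both stages, 183 higher and 160 lower, became 36 and 12 with the 20 CPM filter, 448 and 346 in Pdx1 cells, and 1061 and 247 against cells without a read. At least 1 read against none gave 1068 higher, 20 CPM of Neurog3 gave 731 lower, thinning gave 91 lower, and mean log2 TPM gave 10 lower. For the HM and HZ difference, 2 genes with a higher and 1 with a lower contrast in HM became 0 and 0 with HZ cells of 10 to 50 CPM and with the added HZ pools, and 750 and 513 with DESeq2. Leaving out 1 pair of pools gave from 1 (without HZ pools of 24 somites) to 126 (without HM pools of 24 somites) and from 1 to 235 (the same settings). Without the HM pools of 21 somites the counts were 49 and 37, and without the HZ pools of 21 somites 10 and 2. The cause was not tested.

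Of 121 named genes tested, 52 kept their sign in every alternative, among them 10 of the 12 higher and 7 of the 9 lower genes named for size. The genes named for size had been chosen for 1 direction at both stages, and most alternatives reuse the same cells. Their kept signs are thus partly a result of that choice and no independent evidence. The medians of 24 of 26 lists changed sign in some alternative. The median over all genes, -0.04, moved to 0.15 and 0.14 with limma on CPM and TPM, to 0.17 with at least 1 read against none, to 0.09 against cells without a read and to -0.32 with 20 CPM of Neurog3. The log2 fold change of Adm was 0.96 in thinned cells, and that of Stc1 0.44 with the 18-somite pools added.

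No paired analysis was possible because the numbers in the labels count cells within a genotype and stage and no embryo links cells across groups. With 9 positive cells at 21 somites, shares there carry wide intervals.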

Other observations

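Several genes named above for their size, such as Adm, Stc1, Mxi1 and Efna1, are known to respond to low oxygen. A list of 35 such genes was therefore drawn up after these values were seen, and it gets no test. All 35 were tested singly and none was called by edgeR. An unadjusted p under 0.05 by edgeR was found for 11, against 2.27% of all genes, and DESeq2 called 11, against 1.12% of all genes. Both counts include members seen before the list was drawn up, among them Adm, Stc1, Mxi1 and Efna1. They were not repeated without those members, so they are no independent evidence. In positive cells 28 of the 35 were higher at both stages, against 25.8% of all genes tested. The median log2 fold change was 0.49, beside -0.04 over all genes. Without the 7 members that had been seen first, 21 of 28 were higher at both stages, and the median was 0.42. The theme of the list came from these same pools, so these values too are no independent evidence. The median of the list stayed between 0.23 and 0.90 over the alternatives, while that over all genes ranged from -0.32 to 0.17.

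Egln1, an oxygen sensor, was 289 and 251 CPM in positive HM pools and 120.5 and 131 CPM in negative HM pools. Stc2, a paralogue of Stc1, was 97.1 and 111 CPM in positive pools and 42.8 and 47.6 CPM in negative pools. Vegfa, the vascular growth factor, was 86.2 and 126 CPM in positive pools and 54.4 and 56.6 CPM in negative pools. Pfkfb4, a regulator of glycolysis, was 0.478 and 0.270 CPM in positive pools and 4.62 and 3.17 CPM in negative pools, lower in positive cells at both stages. Slc2a3, a glucose transporter, was 724 and 800 CPM in positive pools and 1616 and 272 CPM in negative pools, with opposite orders at the stages. At 18 somites 16 of 35 genes were higher in positive cells and the median was 0, and in HZ cells the median was -0.24.

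Gm42418, a locus known to collect ribosomal RNA reads, had 3518 and 2549 CPM in positive HM pools and 8590 and 4968 CPM in negative HM pools. At 18 somites it had 12490 CPM in the positive and 12530 CPM in the negative HM pool. The HZ pools of 21 and 24 somites had the same order, with 5342 and 3433 CPM in positive cells and 11170 and 4622 CPM in negative cells. It was chosen after its values were seen. Its share of the reads moved with status at 21 and 24 somites, and its part in the differences was not tested.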
